A study of Mus musculus with 4 samples.

Results

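Microglia, the resident macrophages of the brain, were followed through 8 genes that they express: Cx3cr1, P2ry12, Tmem119, Csf1r, Trem2 and the complement genes C1qa, C1qb and C1qc. The genes were chosen by symbol, and all 8 were found among the 19465 genes of the deposited table. They are described across marker-defined brain areas and across the 4 barcode sets into which the spots of the table fall.

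Coronal sections containing the striatum came from 4 mice, 2 wild-type and 2 heterozygous for Celsr3, which encodes an adhesion receptor of the cadherin family. No mouse was treated, and strain, age, sex and the way the Celsr3 allele was made are not given in the sources used here. The brains were formalin-fixed and paraffin-embedded, and gene probes were captured on a grid of barcoded spots with the Visium CytAssist assay. A spot is a small patch of tissue that can hold several cells. The ending of a spot name, 1 to 4, matches no sample name in the labels, so no set was tied to a mouse or a genotype and the genotypes were not compared. The groups described here are therefore the 4 sets, each 1 library with no replicate, and every interval is a 95% interval that covers counting error only.

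Microglia sense injured tissue through the nucleotide receptor P2ry12 and receive signals from neurons through the fractalkine receptor Cx3cr1. Their survival depends on Csf1r, the receptor for the growth factors Csf1 and Il34. Trem2 is a lipid-sensing receptor that signals through the adaptor Tyrobp, and Tmem119 is a membrane protein much used as a microglial marker. C1qa, C1qb and C1qc encode the chains of C1q, which starts the classical complement pathway and is made in the healthy brain mainly by microglia. Macrophages of the meninges and other brain borders also express Csf1r and the C1q genes.

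The sets held 3055, 2808, 3445 and 3294 spots and 174761560, 109663162, 165184912 and 90752475 counts. The spot names used 4744 barcodes, and 1613 of them were shared by the 4 sets. Each spot was given to the area whose marker genes were highest there, with no member or microglial gene among the markers, and 10855 of 12601 spots received an area. The white matter area was led by the myelin genes Mal and Cldn11, the striatum by Adora2a and Ppp1r1b, the choroid plexus by Ttr and the meninges by Ptgds and Col1a2. Spots of the septum marker list had 1 list gene among their 10 leading genes and are called the Zic1 area, and those of the hippocampus list, where 2 of 6 markers were under 10 CPM (counts per 1000000), are called the C1ql2 spots. Upper and deep cortex together formed the reference. Sets differed widely in all genes: of 11466 genes, 26.7% had a ratio of 1.5 or more in set 1 against set 2, 28.1% in set 1 against set 4, 20.3% in set 2 against set 3 and 25.4% in set 3 against set 4, counted in either direction. The pair of sets 1 and 3 had 4.34% and the pair of sets 2 and 4 had 4.42%. Every area comparison below was therefore made within a set.

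On the CPM scale the 8 genes together were highest in the white matter, the meninges and the pallidum and basal forebrain area in every set. Levels are given in CPM, the counts of a gene per 1000000 of all counts in the same spots. The summed level of the 8 genes was 604, 592, 663 and 524 CPM in the white matter of sets 1 to 4 and 595, 754, 546 and 610 CPM in the meninges. It was 579, 411, 477 and 525 CPM in the pallidum and basal forebrain, 404, 410, 403 and 383 CPM in the striatum and 295, 328, 277 and 303 CPM in the cortex. The hypothalamus, at 242 to 283 CPM, lay near or below the cortex. The thalamus was at 242 CPM in set 1 and 247 CPM in set 4 and the choroid plexus at 183 CPM in set 1 and 210 CPM in set 3, the sets that held at least 30 such spots. In set 2, with neither area, the hypothalamus was lowest at 242 CPM. Counts per spot gave another order, with the ependyma first in set 1, upper cortex in sets 2 and 3 and the pallidum and basal forebrain in set 4.

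Some neighbours in this order were not apart beyond counting error. White matter exceeded meninges by 1.01 times in set 1, with an interval of 0.974 to 1.06. Pallidum and basal forebrain and striatum were at a ratio of 1.00 in set 2 (0.963 to 1.04), and pallidum and basal forebrain and white matter at 1.00 in set 4 (0.950 to 1.06). In CPM the striatum stood above the cortex in each set and the choroid plexus last in both sets that held it. Per spot the striatum was 8, 5, 6 and 4 and upper cortex 5, 1, 1 and 3 in the order of areas of sets 1 to 4, and the choroid plexus was not last.

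**Figure D1:**
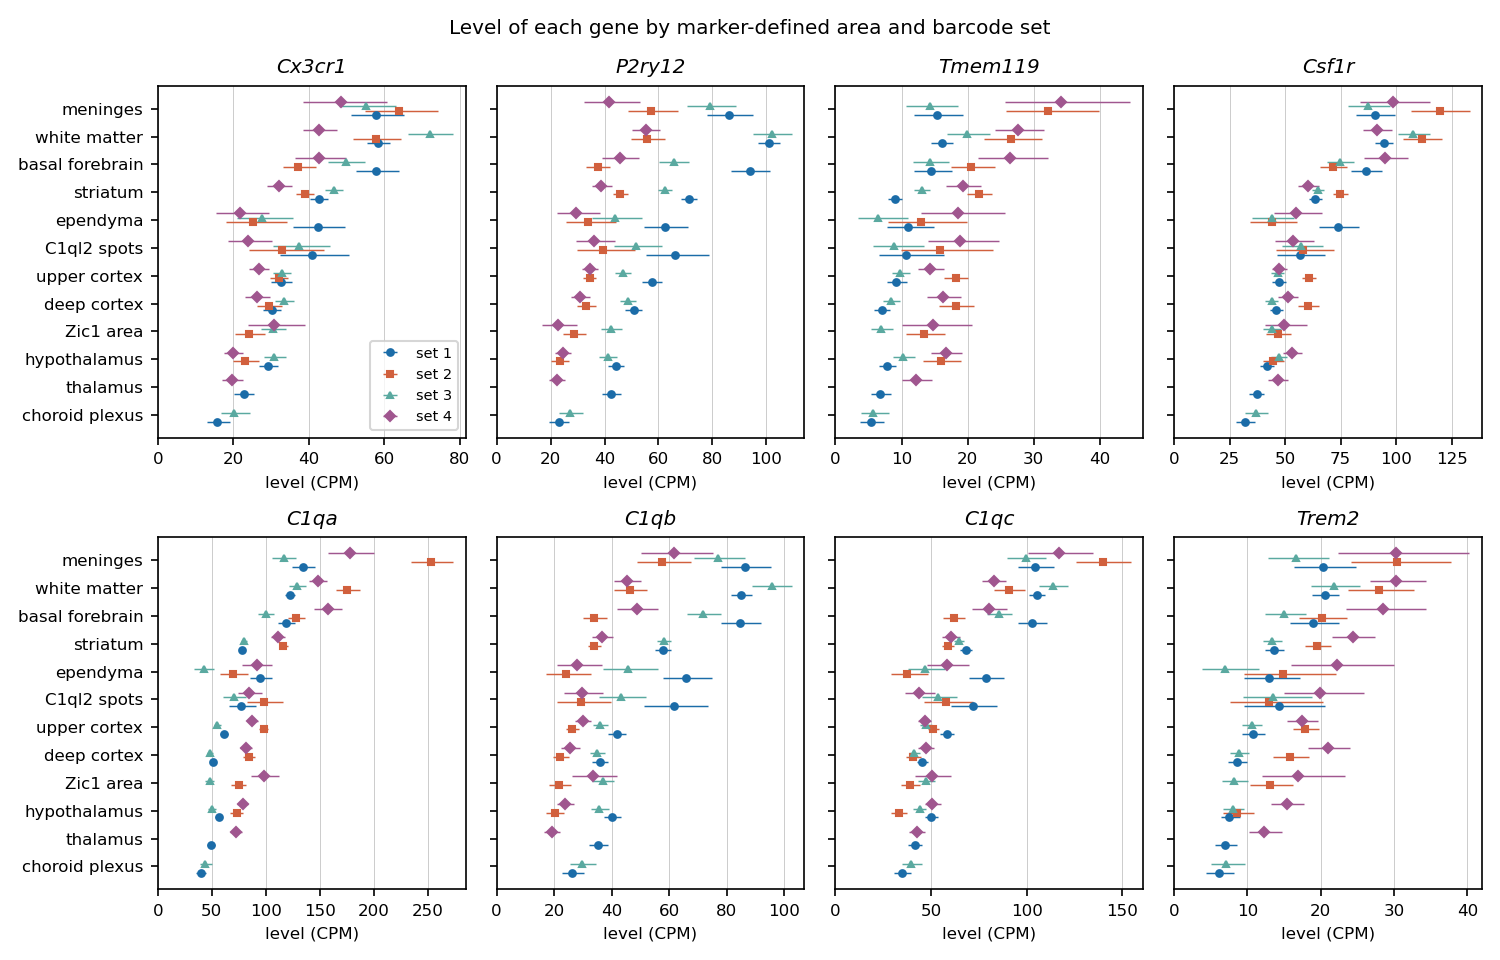
Level of each of the 8 genes in CPM (horizontal axes, from 0) in 12 marker-defined areas (rows) for barcode sets 1 to 4 (colours and symbols); bars are 95% Poisson intervals and areas of under 30 spots in a set are left out. The row named basal forebrain is the pallidum and basal forebrain area. Meninges and white matter sit at the right of each panel and choroid plexus at the left, and for C1qb, P2ry12 and Tmem119 the sets are offset from each other in most areas.

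White matter had higher levels than cortex for 7 of the 8 genes by the rule used here, a ratio of at least 1.5 in all 4 sets, and no gene was lower by that rule. Over all 11399 genes tested, 13.7% were called higher and 8.97% lower. The 32 ratios of the 8 genes in 4 sets ran from 1.46 to 2.69, and the intervals of all 32 lay above 1. The median ratio of the 8 genes was 1.94, and that of all genes tested was 1.03. With the scaling factors of edgeR, 3 (TMM) and 4 (RLE) of the 8 genes were called higher, beside 9.93% and 11.6% of all genes.

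The receptors Cx3cr1 and P2ry12 are described first. Cx3cr1 was at 31.3, 31.2, 33.2 and 26.6 CPM in the cortex of sets 1 to 4 and at 58.4, 57.8, 72.1 and 42.7 CPM in the white matter, and the lowest white matter value was above the highest cortex value. The white matter values of the 4 sets lay above the cortex values without overlap for 7 of the 8 genes, all but Tmem119, and for 21.4% of all genes tested, while 16% lay below. P2ry12 was at 53.8, 34.1, 47.7 and 33.1 CPM in the cortex and at 101, 55.8, 102 and 55.3 CPM in the white matter. Sets 1 and 3 were the high sets for P2ry12 in both areas, and each set had more in white matter than in cortex, by 1.64 to 2.14 times.

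Csf1r, the growth factor receptor, was at 46.4, 60.5, 45.3 and 48.9 CPM in the cortex and at 94.4, 112, 108 and 91.5 CPM in the white matter. Trem2 was at 9.55, 17.2, 9.71 and 18.8 CPM in the cortex and at 20.6, 28.0, 21.8 and 30.3 CPM in the white matter. Tmem119 was at 7.99, 18.2, 9.11 and 15.1 CPM in the cortex and at 16.1, 26.6, 19.9 and 27.6 CPM in the white matter. Sets 2 and 4 were the high sets for Trem2 and Tmem119, the reverse of P2ry12. Tmem119 was the 1 gene that missed the rule, with a ratio of 1.46 in set 2 and 1.83 to 2.19 in the other sets.

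Among the C1q genes, C1qa was at 55.5, 93.7, 51.7 and 85.0 CPM in the cortex and at 123, 175, 129 and 148 CPM in the white matter. C1qb was at 38.6, 25.0, 35.5 and 28.2 CPM in the cortex and at 85.1, 46.2, 95.6 and 45.4 CPM in the white matter. C1qc was at 51.3, 47.8, 44.3 and 46.9 CPM in the cortex and at 106, 90.9, 114 and 82.9 CPM in the white matter. The white matter values of each of the 3 genes lay above its cortex values in all sets. The largest of the 32 ratios was that of C1qb in set 3, 2.69.

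On counts per spot, without division by the total, the white matter difference was not seen, and 0 of the 8 genes were called higher or lower. White matter spots held fewer counts of all genes than cortex spots, with mean totals per spot at 0.567, 0.539, 0.396 and 0.608 of the cortex in sets 1 to 4. The median gene was at 0.558 of its cortex value per spot, while the 8 genes had 0.787 to 1.25 of theirs. Their intervals lay above 1 for 7 of the 32 values and below 1 for 3. In summed counts, a white matter spot held 23.8, 15.3, 16.6 and 10.2 counts of the 8 genes and a cortex spot 20.5, 15.7, 17.5 and 9.71. Relative to other genes the 8 were higher in white matter, and per area of section they were about level. In such data fewer cells of a type and less RNA per cell cannot be told apart.

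**Figure D2:**
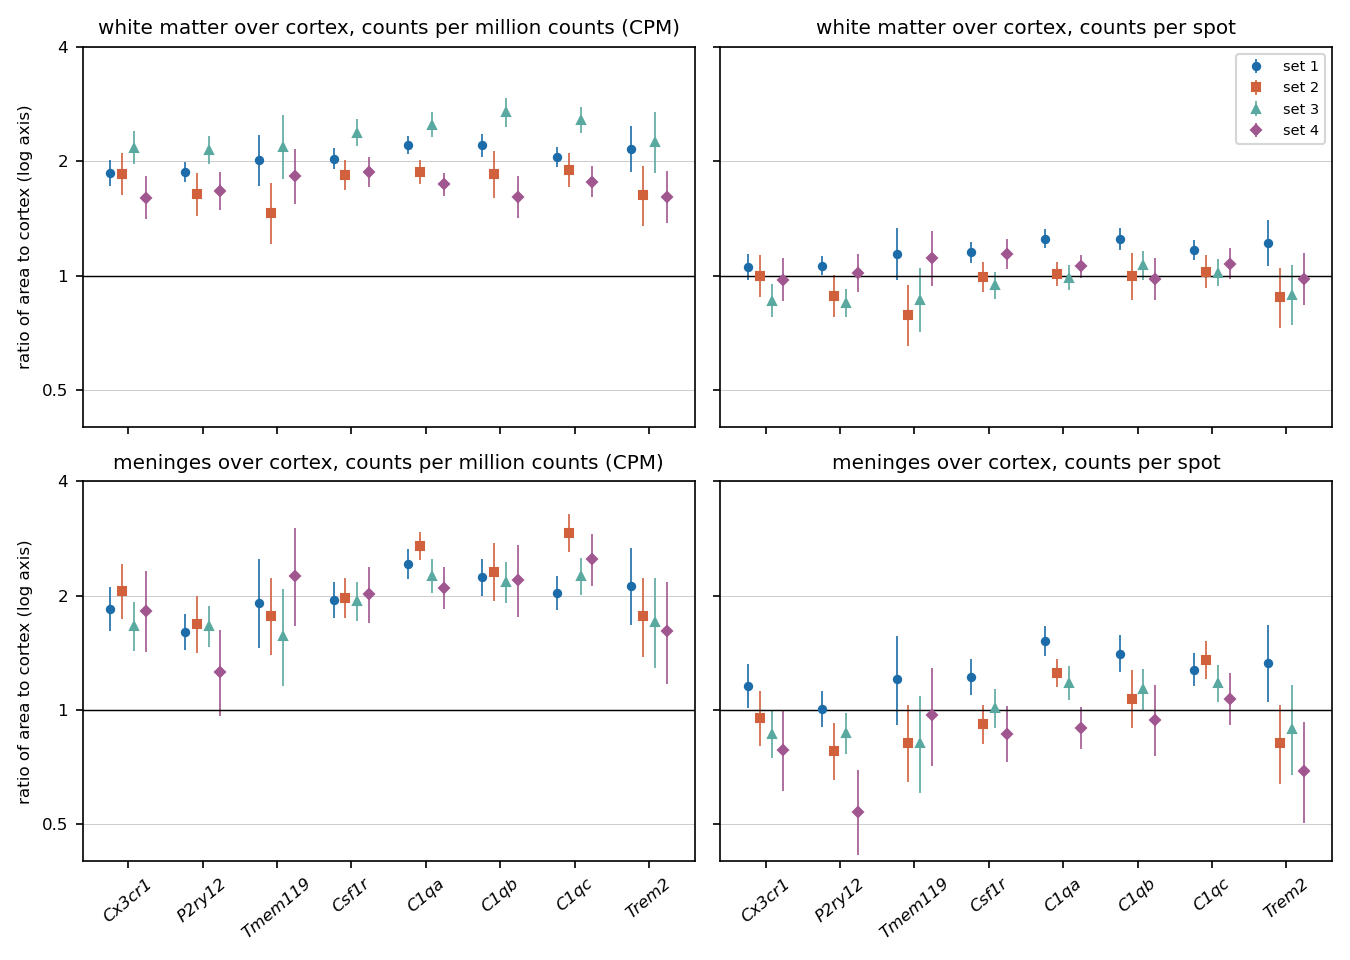
Ratio of white matter (top) and meninges (bottom) to cortex for each of the 8 genes (log axis) in barcode sets 1 to 4, from CPM (left) and from counts per spot (right); bars are 95% conditional binomial intervals. Ratios of white matter to cortex in CPM run from 1.46 to 2.69, and those per spot scatter around 1, from 0.787 to 1.25.

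Other genes expressed by microglia showed the same direction on the CPM scale. Of 15 further microglial genes with at least 5 CPM in cortex, 11 were called higher in white matter than in cortex and 0 lower, beside 11.5% and 9.59% of all 11034 genes with that cortex level. The floor on the cortex level, used for all lists below and added after the data were seen, leaves out genes that passed the filter only through the area where they were high. Ctss, the protease cathepsin S, was 2.25 to 2.97 times higher over the sets, Laptm5, a lysosomal membrane protein, 1.77 to 2.33 times, and Selplg, a selectin ligand, 2.04 to 2.58 times. Per spot their ratios spanned 0.924 to 1.61, with those of Laptm5 on both sides of 1.

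Of 7 genes known to rise in microglia in disease, 3 were called higher in white matter: the lipid carrier Apoe (1.54 to 1.97), the tetraspanin Cd9 (5.30 to 5.92) and its relative Cd63 (2.39 to 3.70). Astrocytes and oligodendrocyte-lineage cells also express these genes, and their part in these values was not tested. Summed border macrophage genes, 9 in all, were at 25.7, 22.0, 28.7 and 29.0 CPM in the white matter and 18.5, 18.9, 16.0 and 19.8 CPM in the cortex. Summed blood leukocyte genes, 10 in all, were at 1.72, 5.60, 4.01 and 11.6 CPM in the white matter and 1.59, 4.63, 2.42 and 5.60 CPM in the cortex. Their part in the white matter result was not tested.

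The ligands of the Csf1 receptor differed from cortex in opposite directions in white matter. Csf1 was 2.59 to 4.51 times higher in white matter than in cortex and Il34 was lower, at 0.340 to 0.449 of the cortex level. Both differences were also seen per spot, at 1.13 to 2.56 for Csf1 and 0.153 to 0.249 for Il34. Il34 was also called lower in the thalamus (0.173 to 0.273), the hypothalamus (0.470 to 0.596), the Zic1 area (0.236 to 0.568) and the choroid plexus (0.293 to 0.308). Csf1 was under 5 CPM in cortex and passed the filter through its white matter level, so no call is read from it. Of the 7 ligand and partner genes with at least 5 CPM in cortex, 5 were called higher in white matter and 1, Il34, lower. Besides Apoe, a ligand of Trem2, the higher ones included the Trem2 adaptor Tyrobp (1.97 to 2.71) and Entpd1 (1.62 to 2.00). Entpd1 breaks down extracellular ATP and ADP, the latter the ligand of P2ry12. The transforming growth factor receptors Tgfbr1 (1.83 to 2.37) and Tgfbr2 (1.67 to 2.47) were the others.

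Of 5 other complement genes with at least 5 CPM in cortex, 2 were called higher in white matter and 1 lower. C4b, the component cleaved next after C1q binds, passed the filter only through its white matter level, as did Itgb2. The ratio of C4b was 11.3 to 17.9, and 6.09 to 9.69 per spot. As the filter let C4b in through this area, no call or rank is read from it. The inhibitor of membrane attack Cd59a was 2.66 to 4.94 times higher and Itgb2, a chain of the complement receptor CR3, 2.10 to 3.04 times. Csmd1, a membrane inhibitor of complement expressed in neurons, was lower, at 0.311 to 0.501 of the cortex level. In other areas C4b, under 5 CPM in cortex throughout, had ratios above 1.5 in every set of the striatum (2.34 to 4.60), hypothalamus (3.47 to 6.17), Zic1 area (2.12 to 4.43), choroid plexus (8.94 to 9.24) and meninges (11.0 to 18.9). The C1q genes were called in white matter and meninges alone among these areas.

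**Figure D3:**
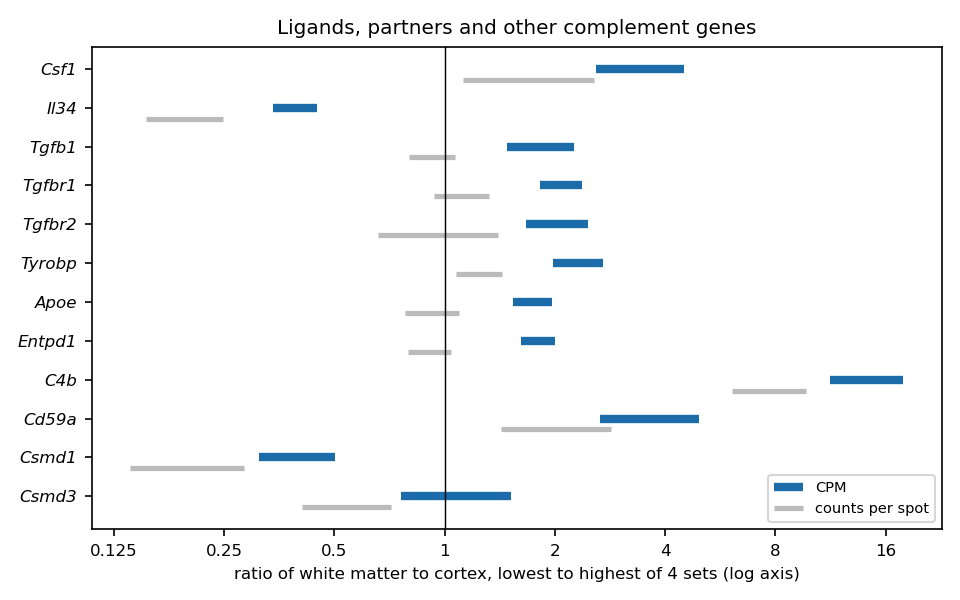
Ratio of white matter to cortex for 12 ligand, partner and complement genes (log axis), drawn from the lowest to the highest of the 4 barcode sets, in CPM (blue) and in counts per spot (grey). C4b lies at 11.3 to 17.9 and Csf1 at 2.59 to 4.51 in CPM, while Il34 and Csmd1 lie below 1 on both scales.

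In the meninges area, 7 of the 8 genes were called higher than in the cortex and 0 lower, where 11.5% of 11537 genes were called higher and 1.14% lower. The 32 ratios ran from 1.26 to 2.93, with 31 intervals above 1. With TMM factors 3 and with RLE factors 4 of the 8 genes were called higher, and 3 on counts thinned to 10000 per spot. Over all genes, 6.49%, 8.82% and 8.88% were called higher in these settings. C1qc was at 104, 140, 99.7 and 117 CPM in the meninges of sets 1 to 4, all above its cortex range, at ratios of 2.03 to 2.93. C1qa was at 134, 253, 116 and 178 CPM, at ratios of 2.09 to 2.70. P2ry12 was the 1 gene that missed the rule, at 86.3, 57.3, 79.2 and 41.7 CPM and ratios of 1.60, 1.68, 1.66 and 1.26. Set 4 was the low set, and the interval of its ratio included 1.

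Per spot, 0 of the 8 genes were called in the meninges, with ratios of 0.541 to 1.52 and 10 intervals above 1 and 5 below. All genes together had 0.429 to 0.628 of the cortex total per spot there. C1qc alone was above 1 in all 4 sets on that scale, at 1.07 to 1.36, with 3 of 4 intervals above 1.

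Markers of border macrophages moved with the meninges area. The scavenger receptor Stab1, the 1 gene of this list with at least 5 CPM in cortex, was 5.33 to 8.54 times higher in the meninges. The mannose receptor Mrc1 (12.2 to 22.6), the chemokine Pf4 (11.5 to 17.9) and the clotting factor subunit F13a1 (11.3 to 17.3) passed the filter only through the meninges, so no count is read from them. The 9 macrophage genes summed to 147, 212, 173 and 247 CPM in the meninges, and none of the 9 was at 0. The 10 blood leukocyte genes summed to 7.77, 16.1, 6.47 and 15.8 CPM, with 3, 0, 4 and 1 of them at 0. Their part in the higher C1q and receptor levels was not tested. Of the 15 other microglial genes with at least 5 CPM in cortex 10 were called higher and 0 lower, beside 8.36% and 1.24% of all genes with that cortex level. Serping1, the C1 inhibitor (19.2 to 22.3), and C3ar1, the receptor for the C3a fragment (3.18 to 3.95), passed the filter only through the meninges.

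The mix of the 8 genes differed between meninges and cortex in P2ry12. Its share of the summed counts of the 8 genes was 14.5%, 7.60%, 14.5% and 6.83% in the meninges of sets 1 to 4 and 18.3%, 10.4%, 17.2% and 10.9% in the cortex. The share in the meninges was 0.625 to 0.842 of that in cortex, and all 4 intervals lay below 1. A lower P2ry12 share was not particular to the meninges. It was 0.689 to 0.750 of the cortex share in the choroid plexus, with 2 of 2 intervals below 1. In the hypothalamus it was 0.793 to 0.928 (3 of 4 intervals below 1) and in white matter 0.894 to 0.965 (2 of 4). In the striatum, at 0.899 to 1.08, and the Zic1 area, at 0.656 to 1.06, it lay on both sides of 1. In the meninges the share of C1qa was 1.04 to 1.20 times and that of C1qc 1.01 to 1.27 times the cortex share, with 3 of 4 intervals above 1 for each. A share does not depend on how much RNA of other genes a spot holds, so the lower part of P2ry12 holds on either scale.

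In the striatum, the region the sections were cut for, all 8 genes were modestly above cortex in CPM, and 0 were called, beside 7.7% of 11113 genes called higher and 10.8% lower. The 32 ratios were 1.12 to 1.64, and 31 intervals lay above 1. C1qb had the highest, with 57.9, 34.0, 58.2 and 36.7 CPM in the striatum and ratios of 1.499, 1.36, 1.64 and 1.30. Csf1r was at 63.6, 74.7, 64.6 and 60.4 CPM and Cx3cr1 at 42.7, 39.0, 46.6 and 32.1 CPM. Per spot the direction turned, with ratios of 0.806 to 1.08, 1 interval above 1 and 10 below, and total counts per spot were 0.649 to 0.773 of the cortex. In the striatum Entpd1 was 2.29 to 3.02 times higher than in cortex, and so were Lpl, a lipase (6.08 to 10.8), and Cd59a (4.09 to 5.12). Of 15 other microglial genes with at least 5 CPM in cortex, 1 was called higher, the transcription factor Irf8 (1.55 to 2.02), and 0 lower. Of all 11034 genes with that cortex level, 6.59% were called higher and 11.8% lower, so the 1 call is near the share of all genes.

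The striatum is crossed by bundles of myelinated fibres, so its spots were divided into 3 parts by the white matter score within each set, a division added after the data were seen. The top part over the bottom part gave ratios of 0.903 to 1.35 for the 8 genes, with a median of 1.06, 10 of 32 intervals above 1 and 0 below. In the hypothalamus the same ratio was 0.868 to 1.68, with a median of 1.29 and 17 of 32 intervals above 1. In the cortex it was 0.798 to 1.10, with a median of 0.966, 0 intervals above 1 and 6 below. Per spot the median was 0.937 in the striatum, with 0 intervals above 1 and 7 below, 1.02 in the hypothalamus, with 2 above and 1 below, and 0.785 in the cortex, with 0 above and 24 below. All CPM intervals above 1 in the striatum came from sets 3 and 4. In the striatum of set 3 the 8 genes summed to 446 CPM in the top part and 386 CPM in the bottom part. In set 4 these sums were 413 and 356 CPM. They were close in set 1, at 424 and 416 CPM, and in set 2, at 409 and 406 CPM. The higher levels in the myelin-rich part of the striatum of sets 3 and 4 were not beyond counting error per spot.

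Most CPM values in the thalamus and hypothalamus were under those of the cortex. In the thalamus area, held by sets 1 and 4, 0 of the 8 genes were called, beside 11.7% of 11231 genes called higher and 10.4% lower, but all 16 ratios were under 1, at 0.653 to 0.955, with 12 intervals below 1. Trem2 was the lowest, at 6.97 CPM in set 1 and 12.3 CPM in set 4, ratios of 0.729 and 0.653, and it was called lower without set 1, that is in set 4 alone. Per spot the 16 thalamus ratios were 0.722 to 1.11, with 4 intervals below 1 and 0 above. In the hypothalamus area 0 were called, beside 12.3% of 11364 genes called higher and 9.03% lower. Its 32 ratios were 0.4998 to 1.12, with 16 intervals below 1 and 0 above, and P2ry12 was below cortex in all 4 sets, at 0.686 to 0.864. Trem2 in set 2, at 8.60 CPM against 17.2 CPM in cortex, gave the lowest. Per spot, 29 of the 32 hypothalamus intervals lay below 1, with ratios of 0.398 to 1.03. Total counts per spot there were 0.817, 0.796, 0.655 and 0.936 of the cortex in sets 1 to 4. The median gene of all those tested was at 0.888 of its cortex value per spot. In the Zic1 area, held by sets 2, 3 and 4, 0 were called beside 7.88% of 11338 genes called higher and 5.93% lower, with ratios of 0.688 to 1.19.

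In the choroid plexus area, held by sets 1 and 3, Cx3cr1 and P2ry12 were called lower and no member higher, beside 20.1% of 11773 genes called higher and 21.6% lower. Cx3cr1 was at 15.8 and 20.3 CPM there and at 31.3 and 33.2 CPM in the cortex of the same sets, ratios of 0.504 and 0.610. P2ry12 was at 23.0 and 27.2 CPM against 53.8 and 47.7 CPM, ratios of 0.428 and 0.571. Both were also lower per spot, at 0.590 to 0.649 for Cx3cr1 and 0.551 to 0.552 for P2ry12. The C1q genes were nearer to cortex, at 0.677 to 0.895. Of 14 further microglial genes with at least 5 CPM in cortex, 3 were called lower and 1 higher. Of all 10990 genes with that cortex level, 24.0% were called lower and 13.9% higher. The lower calls among the members and among these microglial genes are thus near the share of all genes. The 3 lower microglial genes were Siglech (0.445 to 0.611), Gpr34 (0.392 to 0.637) and P2ry13 (0.556 to 0.658). The 9 border macrophage genes summed to 27.4 and 19.6 CPM. The inhibitor Cd59a was called higher in the same spots (19.4 to 24.9), and Cd55 (8.39 to 11.1) passed the filter only through them. Without set 1 or without set 3, 3 members were called lower, from the 1 set left, beside 24.6% and 25.9% of all genes. On Leiden clusters and on thinned counts 0 were called lower, and 4 with scores taken within sets. Over all genes, 10.6%, 16.9% and 23.8% were called lower in these settings.

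The scaling moved the counts over all genes. With TMM factors, which assume that most genes are level, 9.93% of genes were called higher and 13.5% lower in white matter, 6.49% and 6.15% in meninges, 8.67% and 12.9% in thalamus, 8.04% and 12.9% in hypothalamus and 4.97% and 8.85% in the Zic1 area. The median ratio of all genes to cortex then was 0.908 in white matter and 0.826 in meninges, against 1.03 in both by CPM. Under RLE factors the splits were 11.6% and 11.1% in white matter and 8.82% and 2.62% in meninges. They were 9.36% and 11.3% in hypothalamus and 5.77% and 7.91% in the Zic1 area. On counts per spot they were 2.87% and 52.2% in white matter, 2.62% and 50.3% in meninges, 3.37% and 25.5% in striatum, 19.2% and 7.36% in thalamus, 5.50% and 12.8% in hypothalamus and 3.67% and 11.1% in the Zic1 area.

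Between whole sections, the summed level of the 8 genes was 368, 366, 330 and 337 CPM in sets 1 to 4, but single genes differed in opposite directions. P2ry12 was at 62.3, 38.2, 52.4 and 33.1 CPM, high in sets 1 and 3. C1qb was at 52.0, 29.1, 45.5 and 30.1 CPM, high in the same sets. Tmem119 was at 9.40, 19.6, 10.6 and 17.7 CPM, high in sets 2 and 4. Trem2, at 12.0, 17.5, 11.1 and 19.8 CPM, and C1qa, at 73.0, 107, 64.3 and 96.5 CPM, were high in sets 2 and 4 as well. Csf1r, at 57.5, 66.7, 54.1 and 57.2 CPM, C1qc, at 63.5, 53.7, 54.6 and 54.1 CPM, and Cx3cr1, at 38.0, 34.5, 38.0 and 28.1 CPM, were within 1.5-fold in every pair by CPM.

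By a fold of at least 1.5, 3 of the 8 genes differed between sets 1 and 2, 4 between sets 1 and 4, 4 between sets 2 and 3, and 5 between sets 3 and 4, beside the shares of all genes given above for these pairs. Between sets 1 and 3, and between sets 2 and 4, 0 differed. The largest CPM ratio was that of Tmem119 in set 2 over set 1, 2.08, and the next were Tmem119 in set 4 over set 1 and P2ry12 in set 1 over set 4, both 1.88. With TMM or RLE factors 3, 4, 3 and 4 genes differed in the same pairs. Over all genes, 31.5%, 35.8%, 24.9% and 32.1% differed in these pairs with TMM. With RLE 30.3%, 34.3%, 25.2% and 32.1% did. The median log2 ratio of all genes for sets 1 and 2 moved from 0.08 to 0.25 with TMM. Cx3cr1 then differed between sets 1 and 4 and sets 3 and 4, and P2ry12 between sets 2 and 3, while C1qa differed in no pair, Trem2 in sets 3 and 4 alone and Tmem119 no longer in sets 3 and 4. Of 17 other microglial genes 2 were higher in set 1 than in set 2 and 1 the other way round, and 2 and 1 again for set 1 against set 4.

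**Figure D4:**
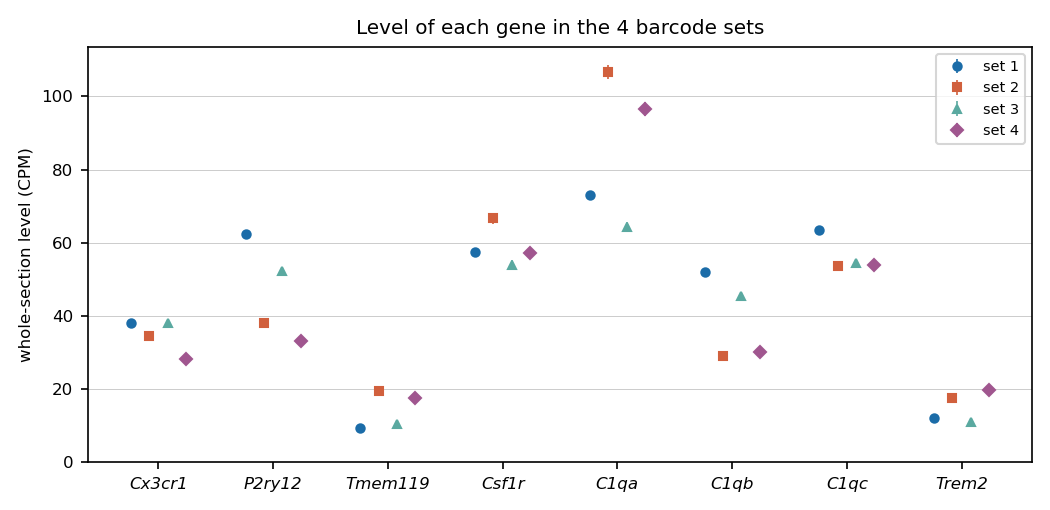
Whole-section level of each of the 8 genes in CPM (vertical axis, from 0) in barcode sets 1 to 4; bars, mostly smaller than the symbols, are 95% Poisson intervals. P2ry12 and C1qb sit higher in sets 1 and 3, and Tmem119, Trem2 and C1qa sit higher in sets 2 and 4.

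The C1q genes can be compared within the same spots. Counts of different genes come from different probes and are not on one scale, so a ratio of their counts says nothing of which transcript is more abundant, but its change between areas or sets can be read. C1qb counts per C1qa count were 0.712, 0.273, 0.707 and 0.312 in whole sets 1 to 4. The lowest area values were 0.644, 0.228, 0.615 and 0.267 in the same order of sets, and the highest were 0.796, 0.345, 1.08 and 0.350. No area value of set 1 or 3 overlapped one of set 2 or 4.

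The ratio of C1qc to C1qa was 0.870, 0.504, 0.848 and 0.560 in the whole sets, with 0.455 to 0.656 over the areas of sets 2 and 4 and 0.764 to 1.10 over those of sets 1 and 3. The ratio of C1qb to C1qc was 0.819, 0.542, 0.834 and 0.557. Within a set, the ratios of white matter, striatum and cortex were close: C1qb to C1qa spanned 0.264 to 0.293 over them in set 2. Ependyma of set 3, with 63 spots, had the highest ratio of C1qb to C1qa, 1.08, and of C1qc to C1qa, 1.10.

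**Figure D5:**
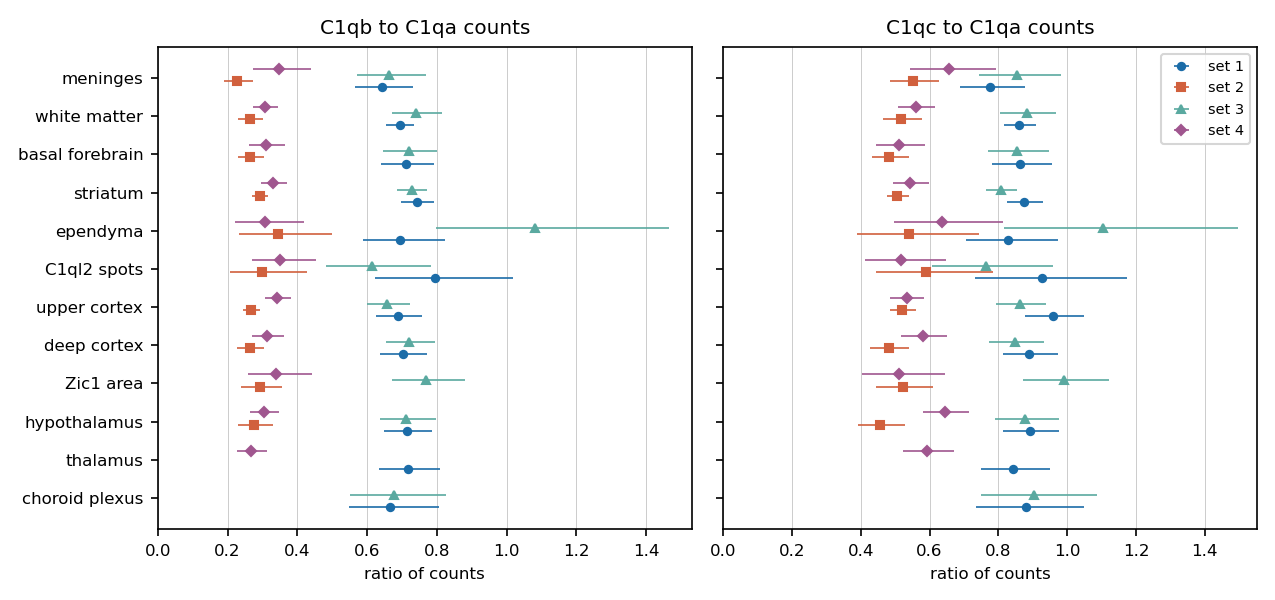
Counts of C1qb (left) and C1qc (right) per count of C1qa (horizontal axes, from 0) in each area (rows) for barcode sets 1 to 4; bars are 95% conditional binomial intervals. For C1qb, sets 2 and 4 lie at 0.228 to 0.350 and sets 1 and 3 at 0.615 to 1.08 over the areas that each set held, with no overlap.

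C1qb, C1qc and C1qa are direct neighbours on chromosome 4 in the RefSeq annotation of GRCm38.p6, in that order. Promoter windows from RefSeq were used for 5 of the 8 genes. None was matched for C1qa and Tmem119, and Csf1r was left out by hand. Windows are shown for C1qb and C1qc, neighbouring genes of 1 protein complex. The window of P2ry12, which like C1qb was high in sets 1 and 3, is shown as well. Each is written from the end far from the gene towards it and lies before the start of transcription. Capitals mark the motif AGGAAG or its reverse complement CTTCCT. The motif is a longer form of GGAA, the core bound by ETS factors such as PU.1, a regulator of microglial genes. Other GGAA cores in the windows are not marked. The windows are those of chr4:136886201-136886450, chr4:136892937-136893164 and chr3:59262986-59263235, all on the minus strand, without 22 bases of the C1qc window that lie inside the gene's longest model.
C1qb: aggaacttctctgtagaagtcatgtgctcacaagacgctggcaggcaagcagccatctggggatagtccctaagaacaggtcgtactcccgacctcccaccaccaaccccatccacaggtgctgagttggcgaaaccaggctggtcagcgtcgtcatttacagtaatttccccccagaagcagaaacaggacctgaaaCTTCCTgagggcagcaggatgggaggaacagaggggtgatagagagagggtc
C1qc: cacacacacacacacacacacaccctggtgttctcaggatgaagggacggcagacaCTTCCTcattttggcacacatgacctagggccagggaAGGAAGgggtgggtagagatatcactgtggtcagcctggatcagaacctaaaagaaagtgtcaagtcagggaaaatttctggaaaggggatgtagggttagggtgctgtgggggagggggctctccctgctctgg
P2ry12: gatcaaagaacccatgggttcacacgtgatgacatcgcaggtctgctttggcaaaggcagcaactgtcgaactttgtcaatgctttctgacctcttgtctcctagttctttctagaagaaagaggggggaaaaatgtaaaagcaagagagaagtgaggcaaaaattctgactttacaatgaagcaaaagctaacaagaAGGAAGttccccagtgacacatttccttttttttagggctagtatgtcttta
The motif begins 52 bases before the start in both C1qb and P2ry12, on opposite strands. In C1qc it begins 194 and 157 bases before the start, counted with the 22 bases left out of the printed window. In Trem2, which was high in sets 2 and 4, it begins 41 bases before the start. The window of Cx3cr1 does not hold the motif, though it holds the shorter core GGAA. Of the 5 windows 4 hold it, as do 29.5% of all 32851 windows of 250 bases. Because Csf1r was left out by hand and C1qa and Tmem119 had no window, no enrichment is read from this count. A match is a description of the letters and shows no binding.

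Within an area, the 8 genes tended to be high in the same spots. Over the spots of 1 area and set, the Pearson correlation of depth-scaled counts between pairs of the 8 genes had a median of 0.230 in cortex, 0.170 in striatum and 0.242 in white matter, and was above 0 in all pairs, areas and sets. With astrocyte genes the median was 0.191, 0.0426 and 0.0915, with oligodendrocyte genes -0.00451, 0.0463 and 0.0577, and with neuron genes -0.110, -0.0200 and -0.0916. Spots share their library and depth, counts per spot are low, and these values are weak and given as a description. The pairs with the highest medians over the 12 areas and sets were Csf1r with C1qa (0.340), C1qa with C1qc (0.331) and C1qa with C1qb (0.327), and the lowest was Tmem119 with Trem2 (0.113), the pair with the fewest counts.

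After thinning to 10000 counts per spot, C1qa was found in 63.0% to 80.7% of white matter spots, 52.6% to 65.7% of striatum spots and 39.9% to 62.1% of cortex spots over the sets. Tmem119 was found in 15.3% to 23.4%, 9.60% to 18.0% and 7.14% to 16.1%. The ratio of variance to mean of C1qa counts was 1.34 to 1.49 in white matter and 1.06 to 1.40 in cortex, where 1 is the value of random scatter.

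The genes most like the 8 over areas were sought among all genes, by Pearson correlation over 43 area and set levels with the mean of the 8. The top 10 included Laptm5 (0.973), Ctss (0.939), Selplg (0.939), Tyrobp (0.938), Fcer1g (0.937), Vsir (0.934), Cd53 (0.923), Fcgr3 (0.916) and P2ry13 (0.914). Of the 10, 7 stood on the list of other microglial genes. Vsir, an immune checkpoint receptor, Cd53, a tetraspanin of white blood cells, and Fcgr3, an immunoglobulin receptor, did not. The levels share libraries and the CPM scale. Each of the 8 genes correlated with the mean of the other 7 at 0.920 (P2ry12) to 0.980 (Csf1r). Among the ligand, partner and complement genes the values ran from -0.37 (Cd55) to 0.938 (Tyrobp), with 0.841 for Tgfb1, 0.823 for Itgb2, 0.468 for C4b, 0.462 for Csf1 and 0.334 for Il34.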

How the data were processed

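Raw counts per gene and spot were deposited by the authors as 1 table, checked to be whole numbers; Space Ranger and Seurat are named in the submitters' processing notes, without versions. The probe set, genome build and filter on spots are not given in the sources used here. Whether spots outside tissue were removed is therefore unknown, and 1 spot under 500 counts was left out.

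Spots were scored for 12 area marker lists by the mean z-score of log(1 + counts per 10000) and took the highest list of at least 0.5. Of the area spots, 1283 lay within 0.25 of a second score. Counts were summed by area and set and divided by their total. Areas needed 30 spots in a set. An area call needed a 1.5-fold ratio to cortex, the same way in every set with both areas, over the genes whose mean level reached 5 CPM. These are calls by size with no test. Intervals were exact Poisson for levels, conditional binomial for ratios and Clopper-Pearson for shares, at 95%, and cover counting error only. Likeness used log2(CPM + 1) centred within sets.

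The members, areas and gene lists were chosen with earlier results of these data known. Named genes were the members, up to 4 of each list by mean level among those called, and the 10 genes most like the members. Further genes (Csf1, Itgb2, Csmd1, Entpd1, Cd63, C3ar1, Serping1, Cd55, Siglech, Gpr34, P2ry13 and C4b or Cd59a outside white matter, where beyond that rule) were named after their values were seen. Some genes that the rule names are not reported here. The planned comparison of genotypes needs the genotype of each set and was not made. Levels of Celsr3 or of any gene were not used to assign one.

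Alternatives were counts per spot, means of spot CPM, TMM and RLE factors, other score thresholds, scores within sets, 28 Leiden clusters, thinned counts, other minimums and a fold of 2. Leaving out each set, the parts by myelin score and counts of list genes over a floor of 5 CPM in cortex were added after the data were seen. The steps were tested on simulated data. Tools were Python 3.11.15, numpy 2.4.6, scipy 1.17.1, pandas 2.3.3, scanpy 1.11.5, leidenalg 0.10.2, igraph 0.11.9, matplotlib 3.10.9, R 4.3.3 and edgeR 4.0.16.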

Additional observations from a re-analysis of the deposited data

How the results depend on the processing

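On counts per spot, the genes called higher fell from 7 to 0 in both white matter and meninges, and the median log2 ratio turned to -0.018 (Cx3cr1), -0.074 (P2ry12) and -0.10 (Trem2) in white matter and to -0.14 (Cx3cr1), -0.16 (Tmem119), -0.054 (Csf1r) and -0.23 (Trem2) in meninges; area spots there hold fewer counts in all. With TMM factors 3 genes were called higher in white matter and 3 in meninges, and 1 was called lower in thalamus. With RLE factors the first were 4 and 4. Thinned counts left 3 called higher in meninges. A fold of 2 left 0 in white matter and 3 in meninges, beside 6.80% and 5.75% of all genes called higher. It left 0 lower in choroid plexus and 1 between sets 1 and 2, where 8.25% of all genes differed. Between sets 1 and 4, 2 and 3, and 3 and 4 it left 0 each. The choroid plexus count of 2 was 1 with means of spot CPM, 4 with scores within sets, 0 with Leiden clusters and 0 with thinned counts. The causes were not tested beyond the construction of each setting. Leaving out each set in turn gave 7 to 8 called higher in white matter (8 without set 2), 7 to 8 in meninges (8 without set 4), 2 to 3 lower in choroid plexus and 0 to 1 lower in thalamus (1 without set 1, which leaves set 4 alone). Spearman correlation shared 9 of the 10 most like genes. In all, 261 counts of calls stayed within 1.5 times the stated one and 20 moved further. Most stated counts for areas were 0, and a 0 that stayed 0 is among the 261. Of values for single genes, 984 moved by less than the spread or interval set for them, 161 by more, and 7 reversed. No paired analysis was possible because the sets carry no replicate number or genotype, and leaving out replicates of a group was not possible for the same reason. Depth limits Tmem119 and Trem2 most, with under 1 count per spot in cortex.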

Other observations

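The 4 sets fell into separate clusters in the C1q ratios, with no group in the labels to name them. C1qb counts per C1qa count were 0.712 (interval 0.693 to 0.731) for set 1, 0.707 (0.687 to 0.729) for set 3, 0.273 (0.263 to 0.284) for set 2 and 0.312 (0.299 to 0.326) for set 4. Counts thinned to 10000 per spot gave 0.700, 0.694, 0.269 and 0.316 in the same order of sets. P2ry12 was at 62.3 CPM in set 1, 52.4 CPM in set 3, 38.2 CPM in set 2 and 33.1 CPM in set 4, and Tmem119 at 9.40, 10.6, 19.6 and 17.7 CPM. The same pairs of sets were nearest over all genes, where 4.34% (sets 1 and 3) and 4.42% (sets 2 and 4) of genes differed by 1.5-fold. Section, animal, genotype, capture slide and sequencing run cannot be told apart in these sets.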
